A study of Mus musculus with 12 samples.

Results

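The genes described here are 10 core parts of the machinery that takes a cell from G1 into S phase: the D-type cyclins Ccnd1, Ccnd2 and Ccnd3, the E-type cyclins Ccne1 and Ccne2, the kinases Cdk2, Cdk4 and Cdk6, and the inhibitors Cdkn1b and Cdkn2c. They were taken by name from the array annotation, where 27 probe sets carry 1 of these symbols, and each gene is given by its brightest probe set on average over the 12 arrays. All 10 were measured, among 18193 genes in all. In build GRCm38.p6 Ccne1 and Ccnd1 lie on chromosome 7, Ccnd2 and Cdkn1b on 6, Ccne2 and Cdkn2c on 4, Cdk2 and Cdk4 on 10, Cdk6 on 5 and Ccnd3 on 17. RNA came from the livers of mice aged 3 months, labelled C57Bl/6, in 3 groups of 4 arrays: wild type without treatment, Atp7b-/- without treatment, and Atp7b-/- with supplemental zinc. Atp7b is the copper transporter through which hepatocytes pass copper into bile. The sources used here do not give the dose and duration of zinc, the sex of the mice or the way Atp7b was disrupted. They also do not say whether each array stands for a separate animal, so every p-value below measures the spread between arrays, which may partly be technical.

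D-type cyclins are made in response to growth signals and switch on Cdk4 and Cdk6, which begin to phosphorylate the retinoblastoma protein. Release of E2F factors then raises E-type cyclins, which switch on Cdk2 and complete the step into S phase. Cdkn2c (p18, of the INK4 family) blocks Cdk4 and Cdk6, and Cdkn1b (p27, of the CIP/KIP family) binds cyclin-Cdk complexes and blocks Cdk2 in particular. In the adult liver most hepatocytes rest outside the cycle, and Ccnd1 is the cyclin best known for rising when they re-enter it after tissue loss.

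In untreated Atp7b-/- liver, 3 of the 10 genes were called lower and 1 was called higher than in wild type. Among all genes measured, 10.3% were called lower and 14.3% higher. Cdk2 fell 2.67-fold and Cdk6 fell 1.70-fold, Ccne1 fell 1.30-fold and Cdkn2c rose 2.00-fold, while none of the 3 D-type cyclins passed the test. With zinc, Cdk6 was higher than in untreated mutants and overlapped wild type, whereas Cdk2 was called below and Cdkn2c above wild type. The last 2 calls were lost without 2 zinc-treated arrays that carried pancreatic transcripts, described below. The Ccne1 call was lost in 3 of 23 other settings of the analysis. Cdk2, Cdk6, Ccne1 and Cdkn2c are thus the genes called in untreated mutants. The 250 bases before the RefSeq start site of each (build GRCm38.p6) are shown to set the promoters side by side. The Cdk6 start site used by the promoter table lies inside the annotated gene, downstream of its first base at chr5:3341004. Capitals mark matches to the words of an E2F site or of a metal response element core, the element bound by the metal sensor Mtf1.
Cdk2 (chr10:128705052-128705301, minus strand): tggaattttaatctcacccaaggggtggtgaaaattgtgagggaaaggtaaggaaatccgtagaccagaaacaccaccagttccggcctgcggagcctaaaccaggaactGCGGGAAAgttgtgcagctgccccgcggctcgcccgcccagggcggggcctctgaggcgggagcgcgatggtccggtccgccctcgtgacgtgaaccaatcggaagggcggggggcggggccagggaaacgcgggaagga
Cdk6 (chr5:3343643-3343892, plus strand): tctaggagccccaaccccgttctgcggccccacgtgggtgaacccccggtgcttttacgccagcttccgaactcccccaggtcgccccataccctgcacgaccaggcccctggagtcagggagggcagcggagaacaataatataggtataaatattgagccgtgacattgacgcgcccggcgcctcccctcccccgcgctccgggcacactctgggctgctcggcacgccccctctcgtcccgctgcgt
Ccne1 (chr7:38107491-38107740, minus strand): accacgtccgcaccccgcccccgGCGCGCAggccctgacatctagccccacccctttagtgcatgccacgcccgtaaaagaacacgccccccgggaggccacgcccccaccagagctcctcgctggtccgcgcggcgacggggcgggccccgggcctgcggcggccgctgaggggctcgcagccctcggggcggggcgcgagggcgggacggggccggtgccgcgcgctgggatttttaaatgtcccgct
Cdkn2c (chr4:109666757-109667006, minus strand): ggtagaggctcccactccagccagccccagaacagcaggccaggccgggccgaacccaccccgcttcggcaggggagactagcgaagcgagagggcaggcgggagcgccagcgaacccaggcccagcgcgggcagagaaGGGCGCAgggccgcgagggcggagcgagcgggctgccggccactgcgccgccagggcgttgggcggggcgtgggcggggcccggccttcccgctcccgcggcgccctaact

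The E2F words were TTTCCCGC, TTTCGCGC, TTTGGCGC and TTTGCCGC and the metal words TGCGCNC and TGCACNC, each searched on both strands, and no match of one kind overlapped one of the other. In Cdk2 the capitals GCGGGAAA, at 140 to 133 bases before the start site, are an E2F word on the opposite strand, and 1.86% of 32851 promoters of the same length held such a word. In Ccne1 the capitals at 227 to 221 bases and in Cdkn2c those at 111 to 105 bases are metal words on the opposite strand, which 21.4% of promoters held. The Cdk6 window, in which GC made up 66.0% of bases, held none of these words. Nor did the window before a second, downstream Cdkn2c start site (chr4:109665373-109665622), with 42.8% GC. The promoter table matched 7 of the 10 genes, and Ccnd1, Ccnd2 and Ccne2 are named only. A match is a run of letters, not a shown binding site.

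Levels are log2 intensities as deposited, on which 1 unit is a 2-fold difference, and they can be compared for a gene between arrays but not between genes. Array medians lay between 5.63 and 5.71, and lower quartiles between 4.13 and 4.29. Differences were tested with limma over all 18193 genes, and a gene was called at a Benjamini-Hochberg adjusted p under 0.05. A list of 6 hepatocyte markers had a mean between 14.3 and 14.5 on every array, and Atp7b was 2.80-fold lower in untreated and 3.40-fold lower in zinc-treated mutants than in wild type (adjusted p = 2.04e-07 and 1.22e-07 by limma). Pancreatic acinar transcripts were present in zinc-treated replicates 2 and 3, with means of 10.2 and 7.76 over 5 markers against 6.34 to 6.74 on the other 10 arrays. Atp7b-/- replicate 1 correlated least with its group (median r = 0.991, against 0.996 for each of the other 3). Wild type and zinc-treated arrays had 0.993 to 0.994 within their groups. The 3' to 5' difference of control probe sets, a sign of RNA degradation, was 0.79 to 0.88 in untreated mutants and 0.54 to 0.78 on all other arrays, so RNA quality and the untreated mutant group cannot be told apart. Of the genes called with zinc against untreated mutants 26.0% were higher as deposited and 40.1% after quantile normalization. For untreated mutants against wild type, 58.2% were higher as deposited, 68.1% after median centring and 49.6% after quantile normalization.

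**Figure D1:**
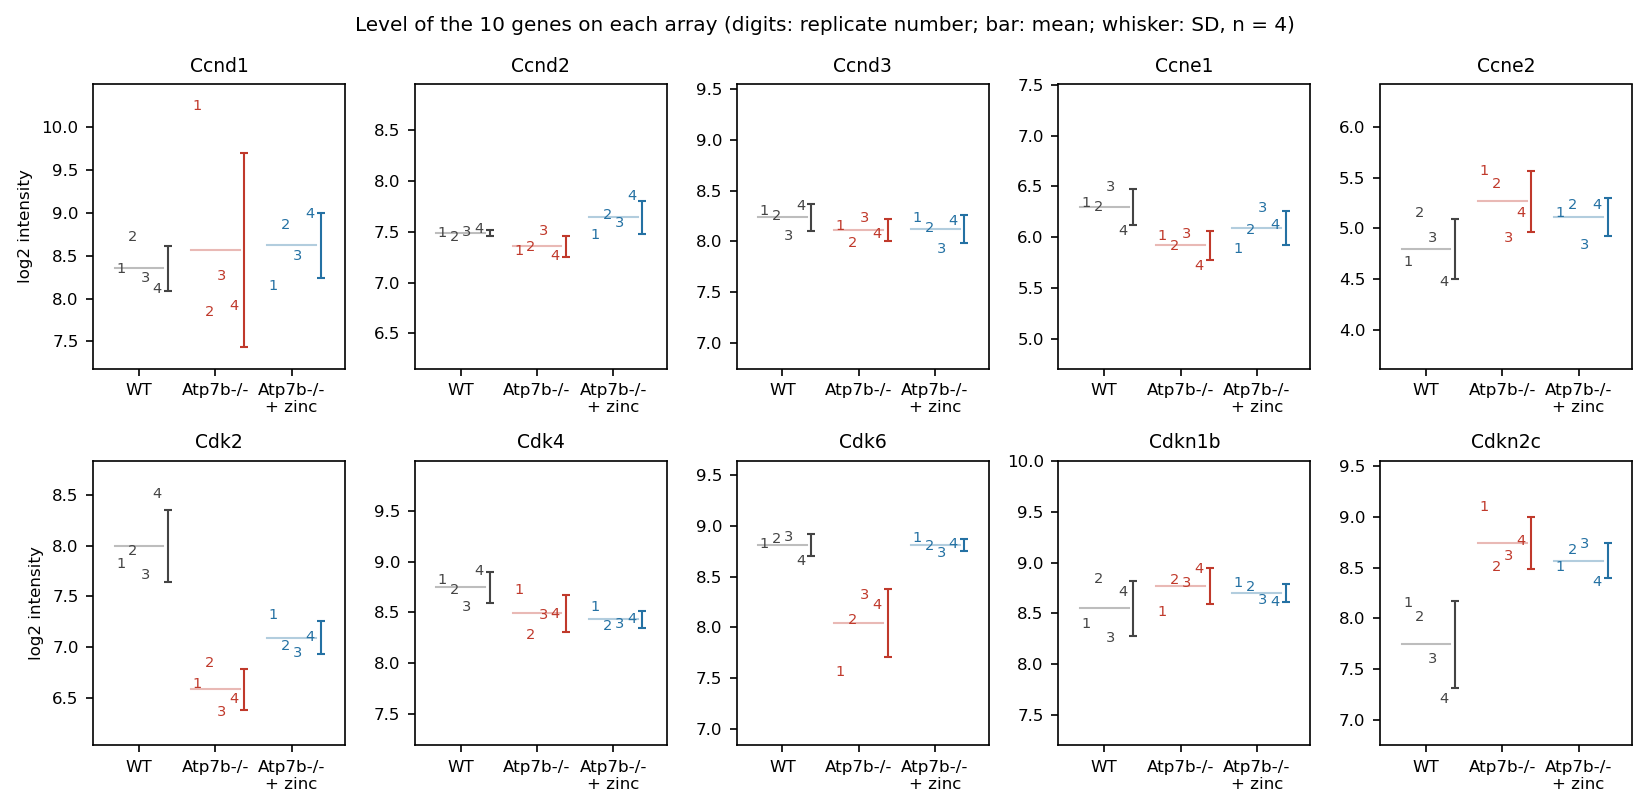
Log2 intensity (vertical axis, scaled per gene) of each of the 10 genes on every array, by group; digits are replicate numbers, the pale bar is the group mean and the whisker the SD (n = 4). Cdk2 and Cdk6 of untreated mutants lie below every wild type array, Cdkn2c lies above, and Ccnd1 of Atp7b-/- replicate 1 stands at 10.2 above all other arrays.

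Untreated Atp7b-/- against wild type asks what differed with the loss of the copper transporter. Of the 10 genes 1 was called higher and 3 were called lower, where 14.3% of all genes were called higher and 10.3% lower. For the same 4 genes no array of one group reached into the other, 1 higher and 3 lower, against 14.3% and 12.1% of all genes. The median difference of the 10 was -0.13, and that of all genes -0.05. In a whole-liver sample, fewer cells that use a gene and less RNA per cell cannot be told apart.

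Cdk2, the partner of E-type cyclins at the start of S phase, had the largest difference of the 10. Its level was 7.82, 7.95, 7.71 and 8.51 in wild type and 6.64, 6.84, 6.36 and 6.48 in untreated mutants. Every mutant array lay below every wild type array, by at least the gap between 6.84 and 7.71. The difference was -1.42 ± 0.16 (SE; adjusted p = 2.56e-05 by limma, n = 4 per group). The other Cdk2 probe set lay between 2.65 and 2.82 on all arrays, below every lower quartile, and gave no measurable difference (-0.01). With the mean of both, the difference was -0.71 and was still called.

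Cdk6, which with D-type cyclins opens the phosphorylation of the retinoblastoma protein, was 8.82, 8.87, 8.89 and 8.66 in wild type and 7.57, 8.08, 8.31 and 8.22 in untreated mutants. Replicate 1 was the lowest mutant array, and without it the difference of -0.77 ± 0.13 (SE; adjusted p = 0.000962 by limma) was -0.61 and still called. All 3 Cdk6 probe sets were lower in every mutant array than in every wild type array, by 0.77, 0.71 and 0.55 in their means. Cdk4, the close relative of Cdk6 in sequence and function, did not pass: it was 8.82, 8.72, 8.55 and 8.91 in wild type and 8.72, 8.28, 8.48 and 8.48 in mutants. Its difference was -0.26 (95% interval -0.48 to -0.04, adjusted p = 0.0815 by limma) and passed in 5 of 24 other settings. It passed after quantile normalization (-0.36), with array weights (-0.30), without wild type replicate 3 (-0.32) and without Atp7b-/- replicate 1 (-0.34). The last also passed with zinc-treated replicates 2 and 3 left out. The Cdk4 probe set used is of a kind that can bind related transcripts. Other Cdk4 probe sets gave -0.21 and -0.07 (adjusted p = 0.241 and 0.848 by limma over all probe sets). The mean of all Cdk4 probe sets differed by -0.18 and did not pass.

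Cdkn2c, the INK4 inhibitor of both of these kinases, went the other way. It was 8.16, 8.01, 7.60 and 7.21 in wild type and 9.10, 8.50, 8.61 and 8.77 in untreated mutants, with no overlap. The rise was 1.00 ± 0.19 (SE; adjusted p = 0.00165 by limma), and 1 probe set measured it. Cdkn1b was 8.40, 8.83, 8.25 and 8.71 in wild type and 8.51, 8.83, 8.80 and 8.94 in mutants, which overlap. Its difference was 0.22 (95% interval -0.05 to 0.49, adjusted p = 0.220 by limma). Its dimmer probe set ran from 4.92 to 5.44 in wild type and from 4.72 to 5.05 in mutants and was lower by 0.39 in the means (adjusted p = 0.0424 by limma over all probe sets), so the direction for Cdkn1b depends on the probe set.

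**Figure D2:**
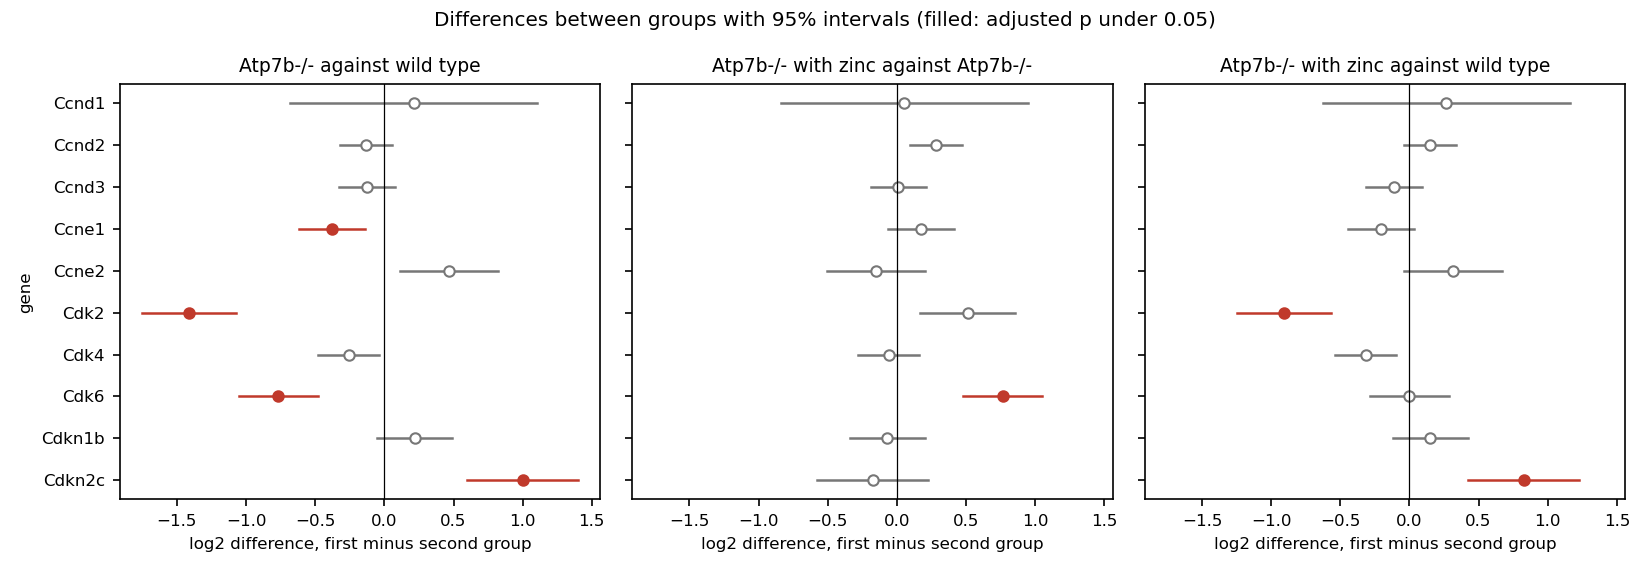
Log2 difference between groups for the 10 genes (horizontal axis; points are differences of group means, lines 95% intervals from limma) in the 3 comparisons; filled points passed an adjusted p under 0.05. Cdk6 is the only filled point in the comparison of zinc-treated with untreated mutants, at 0.77, and it lies at 0.00 against wild type.

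Of the E-type cyclins, Ccne1 was called and Ccne2 was not. Ccne1 was 6.34, 6.29, 6.49 and 6.06 in wild type and 6.01, 5.91, 6.03 and 5.72 in untreated mutants. The nearest arrays, at 6.06 and 6.03, almost touched. The fall was 0.38 ± 0.11 (SE; adjusted p = 0.0237 by limma), and was not called without wild type replicate 1 (-0.36) or 3 (-0.31) or without Atp7b-/- replicate 4 (-0.31). The probe set used for Ccne1 is of a kind that can bind related transcripts, and the other one fell by 0.67 (adjusted p = 0.00233 by limma over all probe sets), also without overlap. Ccne2 was 4.66, 5.15, 4.91 and 4.47 in wild type and 5.57, 5.44, 4.90 and 5.15 in mutants, all below the array medians. Its difference of 0.47 ± 0.16 (SE; adjusted p = 0.0539 by limma) just missed the threshold, and passed it in 7 of 23 other settings, median centring (0.50) and quantile normalization (0.53) among them.

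For the D-type cyclins no difference from wild type passed, but Ccnd1 was uneven among the mutants. It was 8.34, 8.72, 8.24 and 8.11 in wild type and 10.2, 7.85, 8.27 and 7.91 in untreated mutants. Replicate 1 thus stood above every other array, while replicates 2 and 4 lay below every wild type array. The same array was highest on all 3 Ccnd1 probe sets, at 10.2, 9.67 and 8.33. The difference was 0.21 (95% interval -0.68 to 1.11, adjusted p = 0.733 by limma), and -0.35 without that array (adjusted p = 0.222 by limma), so its direction rested on 1 array. Ccnd2 lay between 7.45 and 7.53 in wild type and between 7.26 and 7.50 in mutants, a difference of -0.13 (95% interval -0.32 to 0.05). The mean of its 7 probe sets differed by 0.06, so the direction for Ccnd2 depends on the probe set. Ccnd3 lay between 8.05 and 8.35 and between 7.98 and 8.23, a difference of -0.12 (95% interval -0.33 to 0.08).

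**Figure D3:**
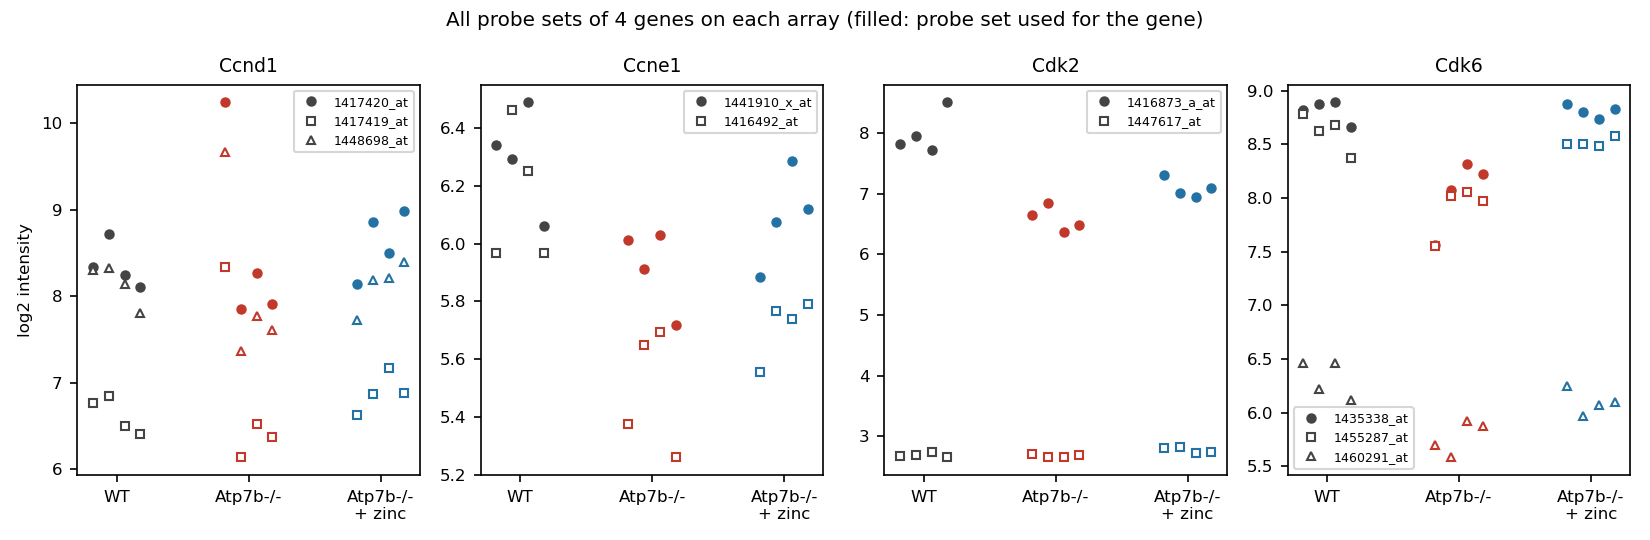
Log2 intensity (vertical axis, scaled per gene) of all probe sets of Ccnd1, Ccne1, Cdk2 and Cdk6 on each array, in replicate order within a group; filled symbols are the probe set used for the gene, open symbols the others. Atp7b-/- replicate 1 is highest on all 3 Ccnd1 probe sets, and the 3 Cdk6 probe sets share the drop in untreated mutants.

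Zinc-treated against untreated Atp7b-/- asks which levels differed with zinc. This comparison shares the untreated arrays with the one above, so the differences are not independent of each other. Of the 10 genes 1 was called higher and 0 lower, where 1.7% of all genes were called higher and 4.84% lower; at an unadjusted p under 0.05, 3 were higher and 0 lower, against 8.84% and 13.1% of all genes. Arrays did not overlap for 2 genes, both higher with zinc, against 5.93% of all genes higher and 9.39% lower. The median difference was 0.03 for the 10 and 0.01 for all genes.

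Cdk6 was the gene called. It was 8.88, 8.80, 8.73 and 8.82 with zinc, against 7.57 to 8.31 in untreated mutants. The rise was 0.77 ± 0.13 (SE; adjusted p = 0.00397 by limma) and was called in all 24 other settings tried, with values from 0.57 to 0.86. The zinc-treated arrays were close together (SD 0.06, n = 4), and the 2 with pancreatic transcripts were the lowest of them, at 8.80 and 8.73, above every untreated mutant array. The second Cdk6 probe set rose by 0.62 (adjusted p = 0.00765 by limma over all probe sets). The third, dimmer one had a difference of 0.32, also without overlap, and did not pass (adjusted p = 0.105).

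Cdk2 was 7.31, 7.01, 6.94 and 7.10 with zinc, above every untreated mutant array. The difference of 0.51 (95% interval 0.17 to 0.85, adjusted p = 0.0732 by limma) did not pass in the fit of all arrays, and passed in 4 of 24 other settings: after quantile normalization (0.54), with array weights (0.52), with only the 2 groups in the fit (0.51, adjusted p = 0.0338) and without wild type replicate 4 (0.51, adjusted p = 0.0186). Ccnd2 was 7.47, 7.66, 7.59 and 7.85 with zinc against 7.26 to 7.50 without, overlapping by a single array on either side. Its difference was 0.29 (95% interval 0.10 to 0.47, adjusted p = 0.0697 by limma), and it too passed in 4 of 24 settings, while the mean of its 7 probe sets differed by 0.16.

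On the probe sets used, the other members gave small differences with zinc. Cdkn2c, at 8.51, 8.67, 8.74 and 8.36, differed from untreated mutants by -0.18 (95% interval -0.58 to 0.23). Ccne1, between 5.88 and 6.29, differed by 0.17 (95% interval -0.06 to 0.41), and Ccne2, between 4.84 and 5.23, by -0.15 (95% interval -0.51 to 0.20). Cdk4 differed by -0.06, Cdkn1b by -0.07 and Ccnd3 by 0.01. Their other probe sets gave -0.35 and -0.15 for Cdk4, 0.37 for Cdkn1b, and 0.23 and 0.22 for Ccnd3. None of these passed, and the direction for Cdkn1b again depended on the probe set. Ccnd1, at 8.14, 8.86, 8.49 and 8.99, differed by 0.05, and by 0.61 without Atp7b-/- replicate 1 (adjusted p = 0.0952 by limma).

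Zinc-treated Atp7b-/- against wild type asks what remained different under treatment, and shares both its groups with the comparisons above. Of the 10 genes 1 was called higher and 1 lower, where 4.89% of all genes were called higher and 2.73% lower. Arrays did not overlap for 1 higher and 2 lower genes, against 7.88% and 6.45% of all genes. The median difference was 0.08 for the 10 genes and -0.02 for all. Without the 2 zinc-treated arrays that carried pancreatic transcripts, 0 of the 10 genes passed in either direction by limma, against 2.87% of all genes higher and 0.967% lower. At an unadjusted p under 0.05, 1 was higher and 2 were lower, against 9.58% and 7.63% of all genes.

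Cdk2 was 0.91 ± 0.16 (SE) lower than wild type with zinc (adjusted p = 0.00288 by limma), a 1.87-fold difference with no overlap. Without the arrays carrying pancreatic transcripts it was still -0.79, but with 2 treated arrays it no longer passed (adjusted p = 0.0539 by limma). The mean of both Cdk2 probe sets differed by -0.41. Cdkn2c was 0.83 ± 0.19 (SE) higher (adjusted p = 0.0150 by limma), a 1.77-fold difference with no overlap, and 0.69 without those arrays (adjusted p = 0.153). Cdk6 differed from wild type by 0.00 on the probe set used (95% interval -0.29 to 0.28). The other Cdk6 probe sets differed by -0.10 (95% interval -0.34 to 0.15) and -0.22 (95% interval -0.45 to 0.01). Both overlapped wild type and did not pass, but their intervals include a remaining deficit beyond 0.29. Cdk4 lay below every wild type array, at 8.55, 8.36, 8.38 and 8.44 against 8.55 to 8.91, where the nearest arrays both round to 8.55. The Cdk4 difference was -0.32 (adjusted p = 0.0810 by limma). Its other probe sets differed by -0.41 and -0.35, overlapped wild type and did not pass. Ccne1 differed by -0.20 and did not pass, although its other probe set was lower without overlap (-0.45, adjusted p = 0.0604 by limma over all probe sets). For Ccnd1, Ccnd2, Ccnd3, Ccne2 and Cdkn1b the differences ran from -0.11 to 0.31 and did not pass. One dim Ccnd2 probe set was higher than in wild type by 0.58 (adjusted p = 0.0333 by limma over all probe sets), against 0.15 on the one used for the gene.

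Some markers of other liver cells differed between the same groups. The mean of 5 endothelial markers was 7.78 to 7.92 in wild type, 7.36 to 7.50 in untreated mutants and 7.63 to 7.84 with zinc. Of the 5, 3 were called lower in untreated mutants, where 10.3% of all genes were, and 1 was called higher with zinc, where 1.7% were. With zinc against wild type 1 of the 5 was called lower, where 2.73% of all genes were. In wild type, untreated and zinc-treated mutants in turn, mean levels were 9.90, 9.08 and 9.51 for Clec4g, 6.54, 5.75 and 6.09 for Lyve1 and 6.02, 5.64 and 5.85 for Pecam1. Kdr was 8.03, 7.90 and 8.11, and Stab2 was 8.73, 8.82 and 8.89, so the drop in untreated mutants was not shared by all 5. Of 6 macrophage markers 4 were called lower in untreated mutants (10.3% of all genes), with list means of 8.05 to 8.92 in wild type, 7.54 to 8.67 in untreated and 7.74 to 8.02 in treated mutants. Of 5 stellate cell markers 2 were called higher with zinc than in untreated mutants (1.7% of all genes). In untreated mutants 1 of 5 measured cholangiocyte markers and 1 of 2 measured erythroid markers were called higher than in wild type (14.3% of all genes), and with zinc 1 of 6 hepatocyte markers was called lower than in untreated mutants (4.84% of all genes). The part of any of these cells, or of RNA quality, in the Cdk6, Cdk2 or Cdkn2c differences was not tested.

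The genes around these 10 were taken from a list of 49 G1 and S-entry genes, of which 48 were measured. Against wild type, 9 of the 48 were higher and 3 lower in untreated mutants, where 14.3% and 10.3% of all genes were, with a median of 0.06. With zinc against untreated mutants 1 was higher and 4 were lower (1.7% and 4.84% of all genes), with a median of -0.02. With zinc against wild type 6 were higher and 2 lower (4.89% and 2.73% of all genes). The last count of higher genes was 2 without the arrays carrying pancreatic transcripts, 3 without zinc-treated replicate 2 and 3 without wild type replicate 3. The count of 2 lower genes was 1 or 0 without any single wild type or zinc-treated array.

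Among other inhibitors, Cdkn1a (p21) of the CIP/KIP family was 7.29 to 8.28 in wild type and 11.1 to 11.9 in untreated mutants, and 4 further inhibitors did not pass. With zinc Cdkn1a was 8.61, 10.3, 10.3 and 8.58: the arrays with pancreatic transcripts, replicates 2 and 3, were high and the other 2 were low. The difference with zinc was -1.92 (adjusted p = 0.0102 by limma), and -2.76 without these 2 arrays, where it was still called. Against wild type it was 1.60 higher with zinc, a call lost in 7 of 23 settings. Among pocket proteins and E2F factors, 3 of 10 were higher in untreated mutants and 1 was lower. Rb1, the main target of Cdk4 and Cdk6, rose by 1.19 (7.82 ± 0.32 to 9.01 ± 0.36, SD, n = 4; adjusted p = 0.000710 by limma). Averaging its probe sets gave 0.64. E2f2 was higher by 0.67 in untreated mutants than in wild type (6.53 ± 0.16 to 7.20 ± 0.15, SD, n = 4), and with zinc it was 6.53 ± 0.19.

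Of 5 genes that activate Cdks, the phosphatase Cdc25a, which removes inhibitory phosphates from Cdk2, fell by 0.83 (6.30 to 6.75 in wild type, 5.64 to 5.94 in mutants; adjusted p = 0.000114 by limma), and 1 other rose. With zinc Cdc25a was 5.99 to 6.29, higher than untreated (0.39) and lower than wild type (-0.43), calls that were lost in 15 and 7 of 23 settings. Of 8 turnover genes, Cks1b, a Cdk-binding protein needed for the destruction of Cdkn1b, rose by 1.16 (10.4 to 11.4 in wild type, 11.7 to 12.3 in mutants; adjusted p = 0.000712 by limma). It was 11.6 to 11.9 with zinc. Of the 4 measured among later cyclins and Cdk1, only Cdk1, the kinase of mitosis, passed in untreated mutants against wild type: it was 5.92 to 6.56 in wild type, 9.27 to 10.1 in untreated mutants and 7.82 to 8.05 with zinc, and all 3 differences were called in all 23 other settings. Of 13 targets of E2F at S-phase entry, 1 rose and 1 fell in untreated mutants. These were Cdt1, which licenses replication origins (0.99, or 0.51 with its probe sets averaged), and Mcm4, a subunit of the replicative helicase (-0.82), both named after their values were seen. Rrm2, a subunit of ribonucleotide reductase, was lower with zinc by 1.57 (adjusted p = 0.0434 by limma), a call lost in 15 of 23 settings, with untreated arrays from 6.40 to 9.14.

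**Figure D4:**
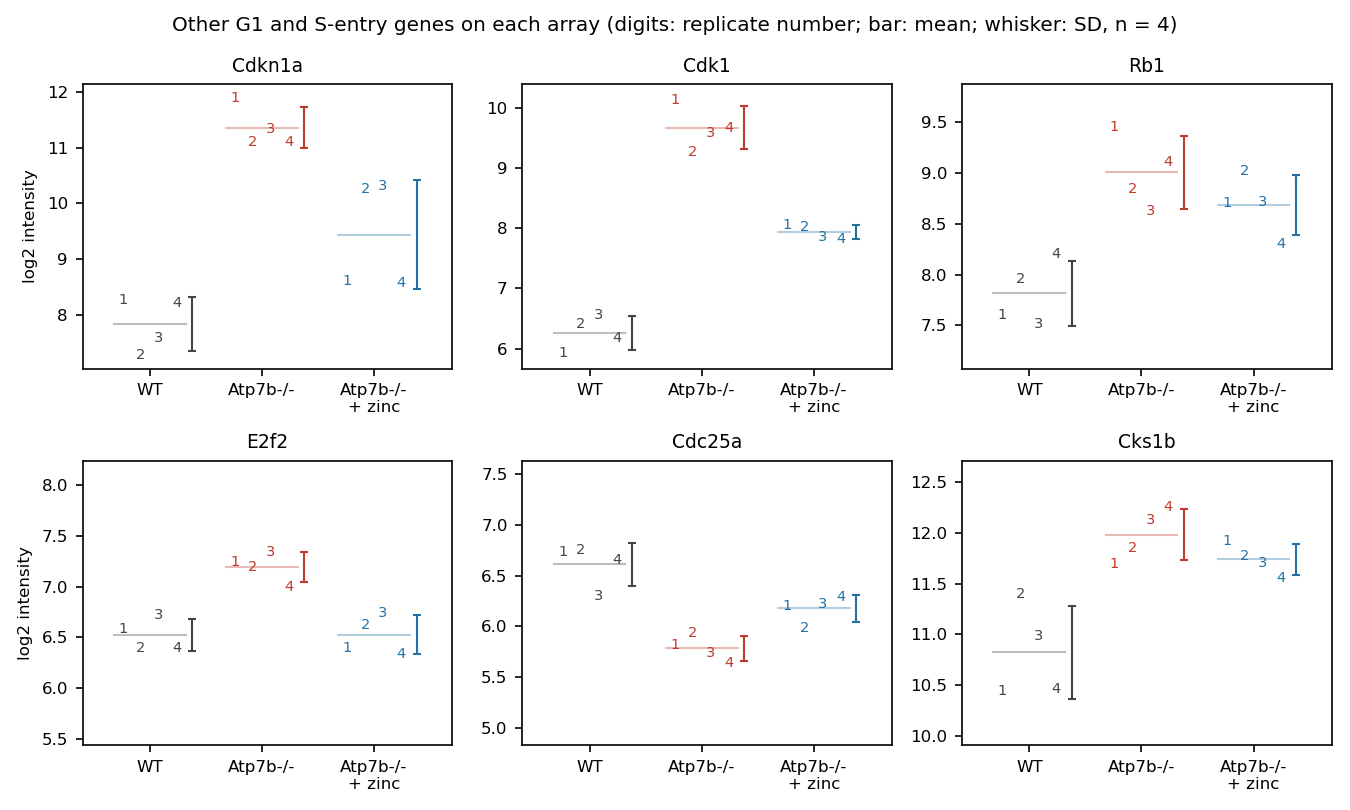
Log2 intensity (vertical axis, scaled per gene) of 6 other G1 and S-entry genes on each array, by group; digits are replicate numbers, the pale bar is the group mean and the whisker the SD (n = 4). Cdkn1a of zinc-treated replicates 2 and 3 lies near 10.3 and that of replicates 1 and 4 near 8.6, while Cdk1 of all 4 lies between 7.82 and 8.05.

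For each gene, those with the most similar pattern over the 12 arrays were found by Pearson's r, as a description, since the 3 groups shape every such value. Nearest to Cdk2 were Pradc1 (r = 0.976) and Med1 (r = 0.964), a subunit of the Mediator complex. Nearest to Cdk6 were Hsd3b3, a steroid dehydrogenase (r = 0.964), and Sult2a8, a sulfotransferase (r = 0.952), both of families with near-identical copies that a probe set may not separate. Nearest to Cdkn2c were the linker histone gene H1f2 (r = 0.935) and Atad2 (r = 0.934), and nearest to Ccne1 were Gdf10 (r = 0.890) and Lsm12 (r = 0.886). Ccnd1 was nearest to Tmsb10 (r = 0.941), an actin-binding protein gene, and to Ip6k2 (r = 0.892). For Ccnd2, Ccnd3, Ccne2, Cdk4 and Cdkn1b the nearest genes were Rps26 (r = 0.853), Ncoa1 (r = 0.940), Actr6 (r = 0.881), Mlycd (r = 0.930) and Tomm70a (r = 0.942).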

How the data were processed

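RNA of 12 mouse liver samples was hybridised to Affymetrix GeneChip mouse arrays, per the labels' protocols. The authors deposited 1 log2 intensity for each of 45101 probe sets per array (2.22 to 15.2, no value missing, no 2 arrays identical). How the authors normalized them is not given in the sources used. The log2 scale was read from the values. The values were used without further scaling. After removal of 64 control probe sets, 34945 had exactly 1 gene symbol, 932 several and 9160 none. Symbols were updated through gene IDs to RefSeq (GRCm38.p6), and a gene was given by its brightest probe set on average over 12 arrays. Group means were fitted with limma 3.58.1 in R 4.3.3 (lmFit, contrasts.fit, eBayes) over all 12 arrays. P-values were adjusted over all 18193 genes, or over all probe sets where stated, and the fit was tested on simulated data. The number of arrays limits the precision. Named genes are all 10 members, up to 5 called genes of the wider list per comparison with the smallest adjusted p, the nearest genes by pattern, and Atp7b. Cdt1 and Mcm4, picked with their values in view, fall outside this rule, and endothelial markers are given as the whole list. The members and lists were chosen with earlier results of these data known. Same-numbered arrays of different groups had correlations of their deviations from -0.13 to 0.24, with 5 of 12 above 0.1. Differently numbered arrays of different groups ran from -0.22 to 0.27, so these correlations do not settle whether numbers pair arrays. The main fit treated arrays as unpaired, and a fit with the replicate number as a block was among the other settings. Sequences are RefSeq's.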

Additional observations from a re-analysis of the deposited data

How the results depend on the processing

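The other settings, 24 per gene and 23 for Ccne1 and Ccne2, covered probe set choice, normalization, variance model, array weights, filters, the groups fitted and arrays left out. In all of them Cdk2, Cdk6 and Cdkn2c kept their calls in untreated mutants against wild type, and Cdk6 its call with zinc. Counts of the 10 genes moved by 1 or 2. Higher in untreated mutants than in wild type was 1 gene, and 2 with median centring, quantile normalization, the trend and robust prior or the replicate block. Leaving out each array in turn gave 1 to 2 higher. Lower in untreated mutants than in wild type were 3 genes, and 4 with quantile normalization or array weights. That lower count was 2 with dim genes left out or at a change of at least 0.5, and 2 to 4 leaving out each array. Higher with zinc than untreated was 1, and 3 with quantile normalization or array weights, 2 with 2 groups only or with dim genes left out, and 1 to 2 leaving out each array. Against wild type with zinc, 1 was higher and 1 lower, and 0 and 0 without zinc-treated replicates 2 and 3, also when Atp7b-/- replicate 1 was left out with them (a setting added after seeing the data), which leaves fewer arrays. The lower count was 2 without probe sets prone to cross-hybridise, and 1 to 2 leaving out each array. The replicate block changed no other call of the 10 genes. Genes called in untreated mutants against wild type numbered 4480, 8475 with all probe sets tested and 1981 at a change of at least 0.5. With zinc against untreated mutants they numbered 1190, and 2013, 1861 (array weights), 614 (without zinc-treated replicates 2 and 3), 598 (those and Atp7b-/- replicate 1), 689 (without Atp7b-/- replicate 4) and 657 (at least 0.5). With zinc against wild type they numbered 1386, and 2158, 699, 881 and 799 for all probe sets, both array exclusions in that order and the minimum change. No detection calls were used, so dim levels such as Ccne2 are the least certain.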

Other observations

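Atp7b-/- replicate 1, the array with the high Ccnd1 level, was also the highest untreated mutant array for several other genes, picked after their values were seen. Rrm2 was 9.14 there and 6.40 to 7.34 on the other 3 arrays. Cdt1 was 8.24 against 7.24 to 7.67, Cdkn2c 9.10 against 8.50 to 8.77, and Cdk1 10.1 against 9.27 to 9.66. Cdk6 was 7.57 there, the lowest of the 12 arrays. The macrophage marker mean was 8.67 against 7.54 to 7.81. Among the 10 genes in 3 groups, 30 sets of 4 arrays were examined for a lone array with Dixon's test, and 0 passed its critical value. With 4 arrays per set this test can miss a deviating array, so it does not show that Atp7b-/- replicate 1 was like the others.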
